A study of Mus musculus with 11 samples.

Results

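Ube2l6 and 8 further interferon-stimulated genes (Isg15, Ifit1, Ifit3, Irf7, Stat2, Bst2, Usp18 and Rsad2) were examined in RNA-seq of mouse hearts. They are 9 of the 22608 genes in the table of counts, found by their Ensembl identifiers, and all 9 were among the 11319 genes that were tested, whose log2 CPM averaged 1 or more. CPM is a count scaled to a common library size, after TMM correction. The list was chosen by the value of Ube2l6 in CD VEH mice, 1 of which was high, and the question was whether that mouse was also high in the other 8. Since values of CD VEH mice were used in the choice, comparisons that hold those mice are given for the 9 genes as a description, with no p-value for a single gene. Counts of the 9 that passed in them are printed beside the share of all genes, and nothing is read from them.

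The study asked how JZL184, an inhibitor of monoacylglycerol lipase, which degrades the endocannabinoid 2-AG, acts on a mouse model of Williams-Beuren syndrome. Complete deletion (CD) mice lack 1 of their copies of the chromosome 5 interval from Gtf2i to Fkbp6, which corresponds to the region lost in the syndrome, and wild-type (WT) littermates have both. The 11 hearts came from male mice of 8 to 16 weeks on the C57BL/6J background that received intraperitoneal injections daily for 10 days. Vehicle went to 2 WT mice (WT VEH) and 3 CD mice (CD VEH), and JZL184, always at 8 mg/kg, to 3 mice of each genotype (WT JZL184 and CD JZL184). The CD deletion is present in all cells of the animal, and the labels of vehicle mice read "untreated" in the treatment field while their titles name vehicle. Mice are called by their group and the letter of their column in the table.

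Total counts lay between 69660232 and 92251443 per mouse. The 14 tested genes of the 25 between Gtf2i and Fkbp6 (GRCm38 chr5:134237834-135350044) were below the lowest WT mouse in each of the CD mice, and none of the interferon-stimulated genes lies there. The summed level of 6 cardiomyocyte markers was 27742 to 38665 CPM, so the tissue matched its label. CD VEH mouse A stood apart from the rest. Its summed level of 5 erythroid markers (4 globin genes and Alas2) was 18832 CPM, 3.42 times the highest of the other 10 mice, and results that rest on this mouse are given with and without it. Its summed level of 6 monocyte and neutrophil markers was 17.7 CPM, against 6.72 to 15.0 CPM in the other 10 mice, and it was the highest of the 11 for 4 of the 6 (S100a8, S100a9, Csf3r and Plac8), with S100a9 at 5.53 CPM against at most 3.22 CPM. Those 4 were too low to be among the tested genes. Of the 2 that were tested, mouse A was 10th of the 11 for Ly6c2, at 2.52 CPM against 3.44 and 3.85 CPM in the other CD VEH mice, and 4th for Ccr2. The part of these markers in the values of mouse A was not tested.

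Interferons are secreted proteins that bind receptors on the surface of cells, where Janus kinases phosphorylate STAT proteins. Stat2 joins Irf9 in the complex ISGF3, which binds a short element in DNA, the interferon-stimulated response element (ISRE), and switches on interferon-stimulated genes. Isg15 encodes a small protein resembling ubiquitin that is attached to other proteins through the activating enzyme Uba7, the conjugating enzyme Ube2l6 and, in the mouse, the ligase Herc6, and Usp18 takes it off again.

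The sequence just upstream of each start site is shown because ISGF3 acts there, and because the genes differ in whether the core of the element is present. RefSeq start sites (GRCm38.p6) were found for 8 of the 9 genes, and the 250 bases before each were searched for GAAA followed by any 2 bases and GAAA, on either strand, counting overlapping matches. The core was found for 6 of 8 (Isg15, Bst2, Stat2, Rsad2, Ifit3 and Ifit1), against 978 of 32851 (2.98%) such windows over all RefSeq start sites. Ube2l6 and Irf7 had no match, which says only that these letters are absent from this window. The interferon-gamma element, TTCNNNGAA, was matched for 1 of the 8 genes, Bst2, against 7.02% of all windows. The windows of Ube2l6 (chr2:84798578-84798827, plus strand), Isg15 (chr4:156200819-156201068, minus strand), Ifit3 (chr19:34583279-34583528, plus strand) and Rsad2 (chr12:26456453-26456702, minus strand) follow, 5′ to 3′ on the strand of the gene, with every base of a core match in capitals.
Ube2l6: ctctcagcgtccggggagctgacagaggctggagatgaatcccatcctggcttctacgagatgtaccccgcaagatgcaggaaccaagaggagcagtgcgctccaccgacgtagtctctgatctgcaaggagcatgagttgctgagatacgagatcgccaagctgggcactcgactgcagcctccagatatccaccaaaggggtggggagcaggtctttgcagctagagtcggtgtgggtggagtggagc
Isg15: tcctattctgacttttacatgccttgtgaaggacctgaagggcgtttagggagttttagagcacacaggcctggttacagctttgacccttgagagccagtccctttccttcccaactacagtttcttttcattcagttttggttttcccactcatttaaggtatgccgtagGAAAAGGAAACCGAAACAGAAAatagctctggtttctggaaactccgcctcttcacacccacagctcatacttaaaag
Ifit3: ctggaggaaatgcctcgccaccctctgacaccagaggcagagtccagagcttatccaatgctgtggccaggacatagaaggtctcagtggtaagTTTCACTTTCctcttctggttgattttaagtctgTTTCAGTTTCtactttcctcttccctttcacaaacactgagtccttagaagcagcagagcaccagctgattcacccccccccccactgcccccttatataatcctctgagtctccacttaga
Rsad2: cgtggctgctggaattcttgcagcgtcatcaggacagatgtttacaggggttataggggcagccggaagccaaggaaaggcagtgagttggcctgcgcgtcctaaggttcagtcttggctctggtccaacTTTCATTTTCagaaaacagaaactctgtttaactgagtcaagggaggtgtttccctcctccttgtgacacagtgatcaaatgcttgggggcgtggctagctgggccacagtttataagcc
The window of Isg15 holds 3 overlapping matches, that of Ifit3 holds 2 separate ones and that of Rsad2 holds 1. That of Ube2l6 has no capitals.

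Ube2l6 (ENSMUSG00000027078.14, GRCm38 chr2:84798828-84810335) had by far its highest value in 1 CD VEH mouse. It was at 10.9 CPM in both WT VEH mice, at 14.8, 17.9 and 14.7 CPM in WT JZL184 mice A, B and D, at 51.3, 14.3 and 15.1 CPM in CD VEH mice A, C and E, and at 8.72, 11.5 and 10.5 CPM in CD JZL184 mice A, C and E. Every CD VEH mouse was above every WT VEH mouse and every CD JZL184 mouse. Without mouse A, the other CD VEH mice lay within or just below the range of WT JZL184 mice. The value of mouse A was 2.87 times the highest of the other 10 mice, WT JZL184 mouse B.

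Isg15 (ENSMUSG00000035692.6, GRCm38 chr4:156199424-156200818), the modifier that Ube2l6 conjugates, was at 2.84 and 3.75 CPM in WT VEH mice, at 4.94, 5.84 and 6.59 CPM in WT JZL184 mice, at 9.65, 5.56 and 7.75 CPM in CD VEH mice and at 2.89, 4.76 and 4.31 CPM in CD JZL184 mice, in the same order of mice. CD VEH mouse A was again the highest, at 1.25 times the next mouse, which was CD VEH mouse E. Usp18 (ENSMUSG00000030107.10, GRCm38 chr6:121245906-121270917), which removes Isg15 from proteins, was at 2.72 and 3.19 CPM in WT VEH, 4.09, 4.43 and 5.26 CPM in WT JZL184, 5.60, 4.29 and 5.47 CPM in CD VEH and 2.90, 4.27 and 3.62 CPM in CD JZL184 mice. Here mouse A was only 1.02 times the next mouse, and the range of CD JZL184 mice overlapped that of WT JZL184 mice.

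**Figure D1:**
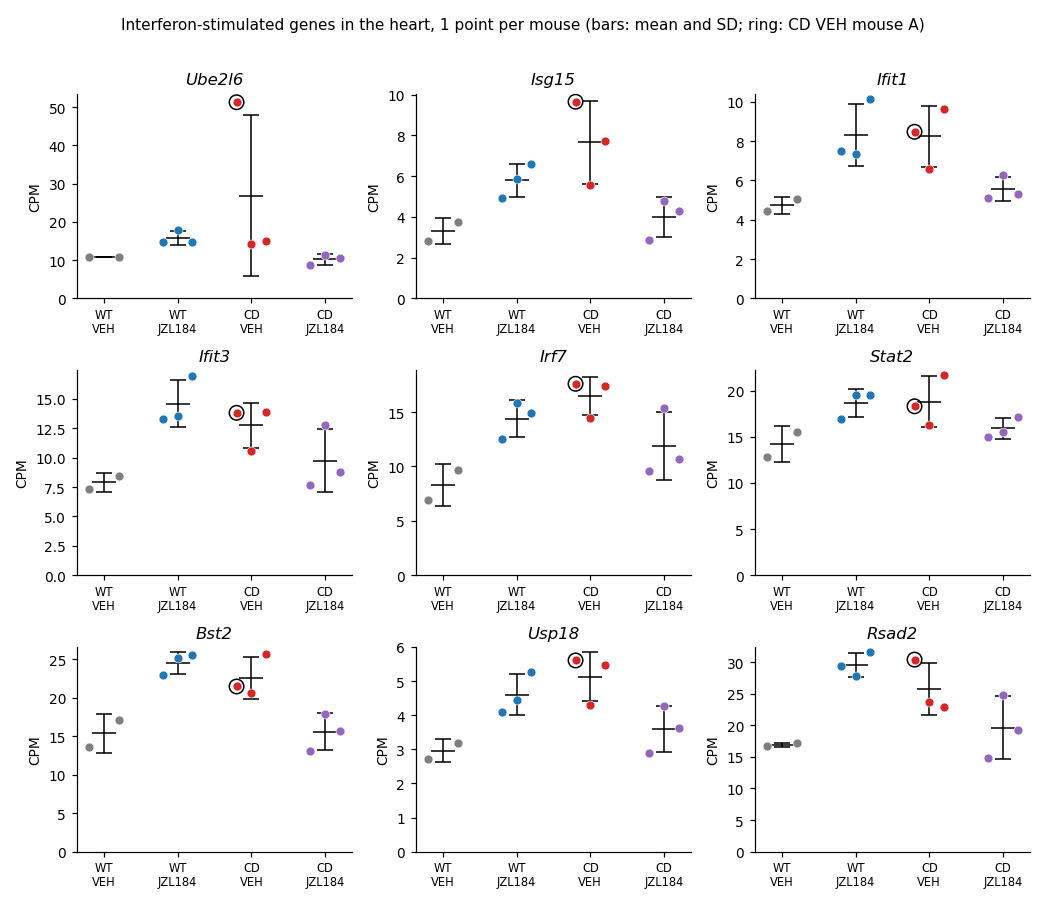
CPM (vertical axes, from 0) of the 9 genes in each mouse by group, with the group mean and SD as bars and a ring around CD VEH mouse A. The ringed mouse stands far above all others for Ube2l6 at 51.3 CPM, and lies among the other CD VEH and WT JZL184 mice for Ifit1, Ifit3, Stat2 and Bst2.

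By group mean, both signalling genes were also highest in CD VEH and WT JZL184 mice, but single mice overlapped. CD JZL184 mouse C was above CD VEH mouse C for Irf7, and CD JZL184 mouse E was above CD VEH mouse C for Stat2. Irf7 (ENSMUSG00000025498.15, GRCm38 chr7:141262706-141266481), the factor that drives transcription of type I interferons, was at 6.95 and 9.65 CPM in WT VEH, 12.5, 15.8 and 14.9 CPM in WT JZL184, 17.6, 14.5 and 17.4 CPM in CD VEH and 9.58, 15.4 and 10.7 CPM in CD JZL184 mice. Stat2 (ENSMUSG00000040033.15, GRCm38 chr10:128270559-128292849) was at 12.9 and 15.6 CPM in WT VEH, 16.9, 19.5 and 19.5 CPM in WT JZL184, 18.3, 16.3 and 21.8 CPM in CD VEH and 15.0, 15.6 and 17.2 CPM in CD JZL184 mice. Mouse A was not above CD VEH mouse E for Stat2, and exceeded it by little for Irf7.

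The 4 antiviral effectors had the same low and high groups by mean. Bst2 (ENSMUSG00000046718.8, GRCm38 chr8:71534255-71537456), which tethers budding virus to the cell surface, was at 13.6 and 17.1 CPM in WT VEH, 22.9, 25.1 and 25.6 CPM in WT JZL184, 21.5, 20.5 and 25.7 CPM in CD VEH and 13.1, 17.9 and 15.7 CPM in CD JZL184 mice. Rsad2 (ENSMUSG00000020641.15, GRCm38 chr12:26442746-26456452), which encodes viperin, was at 16.7 and 17.2 CPM in WT VEH, 29.3, 27.8 and 31.6 CPM in WT JZL184, 30.4, 23.7 and 22.9 CPM in CD VEH and 14.9, 24.8 and 19.2 CPM in CD JZL184 mice. For Bst2 all 5 low mice of WT VEH and CD JZL184 were apart from all 6 high mice, while for Rsad2 CD JZL184 mouse C reached above CD VEH mice C and E.

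Ifit1 and Ifit3 bind viral RNA and are neighbours on chromosome 19. Ifit1 (ENSMUSG00000034459.8, GRCm38 chr19:34640871-34650009) was at 4.43 and 5.04 CPM in WT VEH, 7.48, 7.32 and 10.1 CPM in WT JZL184, 8.47, 6.60 and 9.65 CPM in CD VEH and 5.13, 6.26 and 5.30 CPM in CD JZL184 mice. Ifit3 (ENSMUSG00000074896.3, GRCm38 chr19:34583531-34588731) was at 7.34 and 8.48 CPM in WT VEH, 13.3, 13.6 and 17.0 CPM in WT JZL184, 13.8, 10.5 and 13.9 CPM in CD VEH and 7.69, 12.8 and 8.75 CPM in CD JZL184 mice. Both have relatives in the same family (among them Ifit3b, near-identical to Ifit3), and the estimated counts could be split between similar copies, so their levels are uncertain. CD JZL184 mouse C was the highest of its group for 8 of the 9 genes, Stat2 being the exception.

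By group mean, WT VEH was the lowest group for 8 of the 9 genes and CD JZL184 the next, and Ube2l6 was the exception, with CD JZL184 the lowest at 10.2 ± 1.39 CPM (SD, n = 3) against 10.9 ± 0.0433 CPM (SD, n = 2) in WT VEH. CD JZL184 overlapped WT VEH for all 9 genes except Ifit1, where the lowest CD JZL184 mouse was just above the higher WT VEH mouse. The upper pair was ordered less clearly. CD VEH had the higher mean for Ube2l6 (26.9 ± 21.1 CPM, SD, n = 3), Isg15, Irf7, Stat2 and Usp18, and WT JZL184 for the other 4, and the ranges of the 2 groups overlapped for each of the 9. Without mouse A the mean of Ube2l6 in CD VEH mice was 14.7 CPM (n = 2), below the 15.8 CPM of WT JZL184 mice. Per kilobase of exon, which allows genes to be compared, Bst2 had the highest mean level over the 11 mice at 22.0 CPM per kb, followed by Ube2l6 at 8.22 and Isg15 at 7.08, and Usp18 had the lowest at 1.49 CPM per kb. Without mouse A, Isg15, Ifit3 and Ube2l6 were at 6.51, 6.49 and 6.47 CPM per kb.

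CD VEH mouse A was then set against the other CD VEH mice, on the scale of log2 CPM with a prior count of 2. For Ube2l6 its value exceeded the mean of the other CD VEH mice by 1.80, a ratio of 3.49, and 8 of the 11319 tested genes had a larger difference. For the other 8 genes the difference lay between -0.10 and 0.55 with a median of 0.17. Isg15 was at 0.55, Rsad2 at 0.38, Usp18 at 0.21, Ifit3 at 0.19, Irf7 at 0.15 and Ifit1 at 0.09, while Stat2 was at -0.04 and Bst2 at -0.10. The mouse that was high for Ube2l6 was therefore not high to that extent for any of the others, and for Bst2 and Stat2 it was below the mean of its group mates.

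Besides Ube2l6, whose level in mouse A guided the choice, mouse A was the highest of the 11 mice for 3 of the other 8 genes (Isg15, Irf7 and Usp18), while it was so for 8.23% of all tested genes. For Irf7 and Usp18 the lead was 1.01 and 1.02 times the next mouse. Among 74 tested genes of the interferon pathway outside the 9, mouse A was the highest of the 11 for 5, and the median difference between mouse A and the other CD VEH mice was 0.02, with a range of -0.44 to 0.53.

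The 8 genes that exceeded Ube2l6 in this difference were Alas2 (3.22), which encodes the first enzyme of haem synthesis in red blood cell precursors, Hbb-bt (3.16), Hbb-bs (3.05), Hba-a2 (2.83) and Hba-a1 (2.82), which encode globins, Tent5c (2.61), Isg20 (1.98), an exonuclease gene named for its induction by interferon, and Bpgm (1.90), the enzyme that makes 2,3-bisphosphoglycerate in red blood cells. The pairs of globin genes are near-identical, and their counts could be split between copies. The share of erythroid transcripts in the value of Ube2l6 was not tested.

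**Figure D2:**
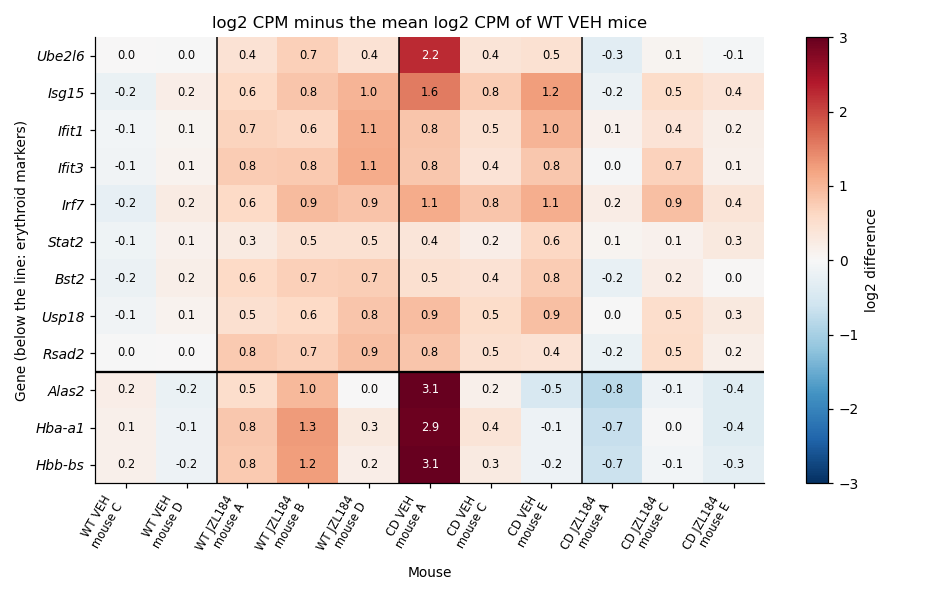
log2 CPM of the 9 genes and 3 erythroid markers (rows) in each mouse (columns), minus the mean log2 CPM of the WT VEH mice, with the colour scale running from -3 to 3. The column of CD VEH mouse A is darkest for the erythroid markers and Ube2l6, whereas the other interferon-stimulated genes are raised to a like degree in WT JZL184 and CD VEH mice.

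Over the 11 mice, the genes whose log2 CPM was most like that of Ube2l6 were Isg20 (Pearson's r = 0.986), Mkrn1 (0.967), Hbb-bs (0.959), Hba-a2 (0.956), Hbb-bt (0.956), Hba-a1 (0.956), Alas2 (0.944), Bpgm (0.929), Tent5c (0.928) and Bnip3l (0.927). These places rest on mouse A. Without it Isg20 came 49th among the tested genes (r = 0.959), Bnip3l 843rd, Mkrn1 1284th, the 5 erythroid genes between 1241st (Hba-a2, 0.846) and 2351st (Alas2, 0.730), Bpgm 3358th (0.571) and Tent5c 3429th (0.557). The mice share the group differences, and none of these coefficients was tested. Isg20 had 18.4 CPM in mouse A and 2.49 to 6.91 CPM in the other mice. Of the other 8 interferon-stimulated genes, Isg15 came 82nd among the tested genes (0.811), and the rest came between 703rd (Usp18, 0.697) and 3036th (Stat2, 0.460). Without mouse A, Bst2 came 289th (0.928), ahead of the 5 erythroid genes, Isg15 came 1500th (0.824), and the other 6 lay between 1251st (Rsad2, 0.845) and 2585th (Stat2, 0.701).

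With the summed erythroid markers, Ube2l6 had r = 0.958 and Spearman's rho = 0.791 over 11 mice. Without mouse A these were 0.835 and 0.721 over 10 mice, and without the 2 mice farthest from the median of Ube2l6 they were 0.769 and 0.617 over 9. With the mean of the other 8 genes, Ube2l6 had r = 0.675 and rho = 0.836 over 11 mice, and r = 0.843 and rho = 0.830 without mouse A. Ube2l6 thus varied with both measures among the remaining mice. The mouse with the next highest erythroid sum, WT JZL184 mouse B at 5512 CPM, also had the next highest Ube2l6.

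**Figure D3:**
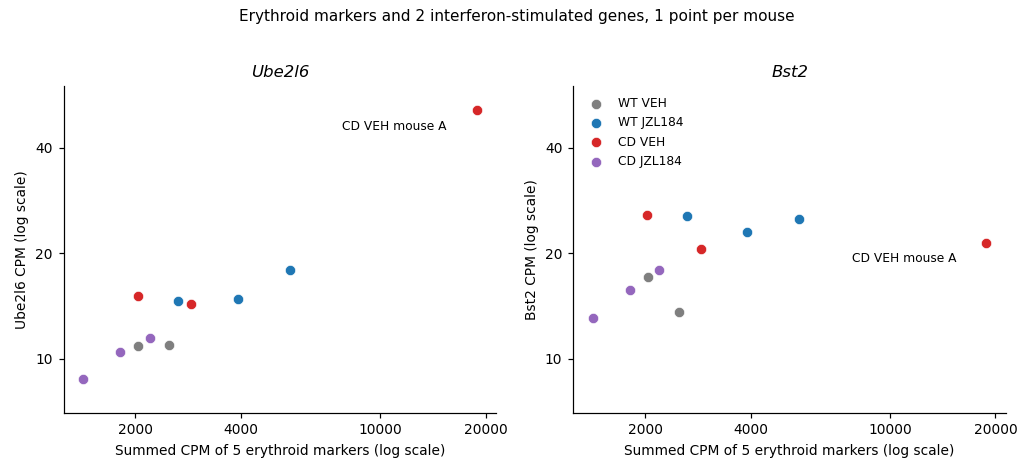
Ube2l6 (left) and Bst2 (right) in CPM against the summed CPM of 5 erythroid markers, both axes on a log scale, 1 point per mouse coloured by group. CD VEH mouse A is at the far right of both plots, at 18832 CPM, and is the highest mouse for Ube2l6 at 51.3 CPM but not for Bst2 at 21.5 CPM.

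Among themselves the other 8 genes varied closely together. The median r of each with the remaining 7 over the 11 mice lay between 0.831 (Stat2) and 0.922 (Usp18), while that of Ube2l6 with the 8 was 0.604. Without mouse A the median for Ube2l6 was 0.787. The mice share their groups, so these coefficients are a description only.

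In CD VEH against WT VEH mice, the 9 genes were all higher, with edgeR log2 fold-changes between 0.40 (Stat2) and 1.30 (Ube2l6) and a median of 0.79. The median over all tested genes was 0.01, and 30.4% of them passed an adjusted p of 0.05 in edgeR's quasi-likelihood test in either direction (15.0% higher). All 9 interferon-stimulated genes did so, but this contrast holds the mice that guided the choice of genes. The log2 fold-change was 1.21 for Isg15, 0.99 for Irf7, 0.80 for Ifit1, 0.79 for Usp18, 0.69 for Ifit3, 0.60 for Rsad2 and 0.55 for Bst2. Without CD VEH mouse A, that of Ube2l6 went from 1.30 (SE 0.45) to 0.43 (SE 0.13), and those of the 9 genes had a median of 0.62. In that fit 6 of the 9 passed, beside 17.0% of all tested genes. Without WT VEH mouse C, which leaves a single WT VEH mouse, the log2 fold-changes of the 9 genes lay between 0.27 and 1.30, with a median of 0.68.

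In CD JZL184 against CD VEH mice, the same 9 genes were lower, with log2 fold-changes of -1.39 for Ube2l6, -0.94 for Isg15, -0.57 for Ifit1, -0.54 for Bst2, -0.51 for Usp18, -0.47 for Irf7, -0.39 for both Ifit3 and Rsad2 and -0.24 for Stat2. Of the 9, 5 passed the threshold (Ube2l6, Isg15, Ifit1, Bst2 and Usp18), beside 33.8% of all tested genes in either direction and 17.0% lower. That count too is a description, since CD VEH mice guided the choice of genes. This comparison shares its CD VEH mice with the one above, so a gene that is high in those mice is higher in one and lower in the other. Without mouse A the log2 fold-change of Ube2l6 was -0.52 and 3 of the 9 passed, beside 18.5% of all genes. The count was 3 without CD VEH mouse E (18.0% of all genes), 2 without CD JZL184 mouse A (21.6%) or E (19.0%), and 8 without CD JZL184 mouse C (26.6%).

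JZL184 in WT mice, a comparison without CD VEH mice, was tested. In WT JZL184 against WT VEH mice, 8 of the 9 genes rose, beside 29.4% of all tested genes in either direction and 15.4% higher. Ifit3 rose most, by a log2 fold-change of 0.88 (SE 0.20, adjusted p = 0.00986), which is 1.85-fold. Ifit1 (0.81), Isg15 (0.81), Rsad2 (0.80) and Irf7 (0.79) rose by similar amounts, Bst2 by 0.67 and Usp18 by 0.64, and Stat2 rose least, by 0.39 (SE 0.12, adjusted p = 0.0352). For all 9 genes every WT JZL184 mouse was above both WT VEH mice, as for 27.4% of all tested genes.

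Ube2l6 was the gene that did not pass, at 0.53 (SE 0.44, adjusted p = 0.378), although its groups were as far apart as 10.9 and 14.7 CPM at their nearest. All 4 groups entered the fit with a shared model of the spread. When CD VEH mouse A was left out of the fit, the log2 fold-change of Ube2l6 was again 0.53 with an adjusted p of 0.0115, and with only the compared groups the adjusted p was 0.0229. Its adjusted p over the 16 alternatives ranged from 0.0115 to 0.632.

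The other calls changed when single mice were left out. Without WT JZL184 mouse D 5 of the 9 passed in edgeR, beside 25.6% of all tested genes, and without WT JZL184 mouse B 6 did (18.5%). Leaving out WT VEH mouse C leaves a single WT VEH mouse. The log2 fold-changes of the 9 genes then lay between 0.26 and 0.79, with a median of 0.58. Without WT VEH mouse D, which also leaves 1, they lay between 0.52 and 1.05, with a median of 0.85. With the log2 erythroid sum as a covariate, added after seeing the data, 5 passed (19.3%) and Ube2l6 was at 0.09 (adjusted p = 0.632). DESeq2, run on all 11 mice, called 8 of the 9, beside 33.2% of all tested genes. These WT VEH mice are also those of the CD VEH comparison above.

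In CD JZL184 against WT JZL184 mice, 4 of the 9 genes fell, beside 38.3% of all tested genes in either direction and 20.1% lower. The WT JZL184 mice are those of the comparison above, so a gene that is high in them is higher in that comparison and lower in this one. Bst2 fell by a log2 fold-change of 0.66 (SE 0.12, adjusted p = 0.00249), Rsad2 by 0.59 (SE 0.16, adjusted p = 0.0118), Ifit1 by 0.58 (SE 0.16, adjusted p = 0.0131) and Ifit3 by 0.58 (SE 0.17, adjusted p = 0.0215). The values of the other genes were -0.62 for Ube2l6 (adjusted p = 0.221), -0.54 for Isg15 (0.0703), -0.35 for Usp18 (0.0953), -0.28 for Irf7 (0.221) and -0.23 for Stat2 (0.115), all below 0. Of the 9, 6 had every CD JZL184 mouse below every WT JZL184 mouse (Ube2l6 and Isg15 and the 4 that fell), as had 24.3% of all tested genes. With CD VEH mouse A left out, Ube2l6 passed at -0.62 with an adjusted p of 0.00231, while with the erythroid sum as a covariate it was at -0.01 (adjusted p = 0.967) and 2 of the 9 passed, beside 24.2% of all genes. The count of 4 became 2 without WT JZL184 mouse D (34.9% of all genes) or CD JZL184 mouse A (27.7%), and 6 without CD JZL184 mouse C (31.6%).

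The effect of JZL184 in CD mice minus its effect in WT mice, which again holds the CD VEH mice and is a description for these genes, was below 0 for all 9, with a median of -1.26. Over all tested genes the median was -0.01. All 9 passed the threshold below 0, beside 26.2% of all tested genes (51.5% in either direction).

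**Figure D4:**
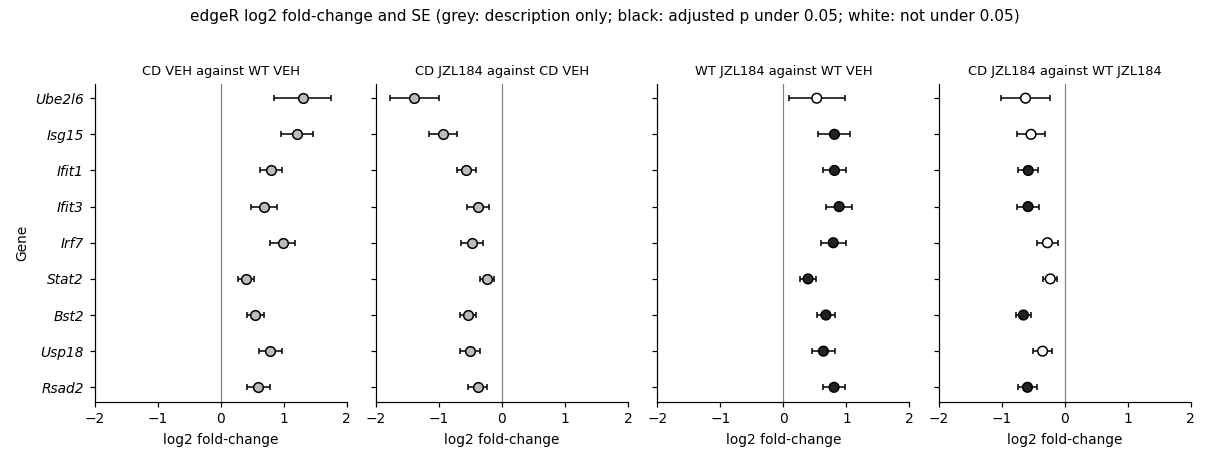
edgeR log2 fold-change (horizontal axes) with its SE for the 9 genes in 4 comparisons. Grey points belong to comparisons with CD VEH mice and are a description only, black points passed an adjusted p of 0.05 and white points did not. All 9 genes are above 0 in the CD VEH and WT JZL184 comparisons with WT VEH and below 0 in both comparisons of CD JZL184 mice, with the widest bars for Ube2l6.

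The rest of the pathway was described by role, with 95 genes in the table and 74 tested. In WT JZL184 against WT VEH mice 49 of the 74 rose and 1 fell (all genes 15.4% and 14.0%), with a median log2 fold-change of 0.50 against 0.00 over all genes. In CD JZL184 against WT JZL184 mice 1 rose and 41 fell (all genes 18.2% and 20.1%), with a median of -0.34. Those 2 comparisons share the WT JZL184 mice, so their counts are not separate evidence. In CD VEH against WT VEH mice 42 rose and 1 fell (all genes 15.0% and 15.4%, list median 0.43), and in CD JZL184 against CD VEH mice 3 rose and 37 fell (all genes 16.8% and 17.0%, list median -0.30). These counts depend on single mice, as do the shares of all tested genes. In WT JZL184 against WT VEH mice 32 of the 74 passed without WT JZL184 mouse B (18.5% of all tested genes). For CD VEH against WT VEH mice 34 passed without CD VEH mouse A (17.0%). For CD JZL184 against CD VEH mice 28 passed without CD VEH mouse A (18.5%). In that comparison 25 passed without CD VEH mouse E (18.0%) and 26 without CD JZL184 mouse A (21.6%).

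The interferons themselves were barely detected. Of 11 ligand genes, 8 had 0 counts in every mouse, and Ifnb1, Ifnk and Ifng had totals of 3, 1 and 8 counts over the 11 mice. A count of 3, the most a gene at 0 could hide, corresponded to 0.0306 to 0.0435 CPM. Differences in ligand transcripts were not detectable at this depth.

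Of the 6 receptor genes, Ifnar2 and Ifngr1 rose in WT JZL184 against WT VEH mice, by 0.49 (SE 0.07, adjusted p = 0.00232) and 0.50 (SE 0.10, adjusted p = 0.00527), and fell in CD JZL184 against WT JZL184 mice, by 0.24 and 0.50. Ifnar2, a chain of the type I interferon receptor, was at 15.3 and 16.3 CPM in WT VEH, 21.9, 22.6 and 22.1 CPM in WT JZL184, 22.0, 20.0 and 23.3 CPM in CD VEH and 18.0, 19.3 and 18.9 CPM in CD JZL184 mice. Its groups of high and low mice did not overlap, and mouse A lay within its own group. The partner chain Ifnar1 rose by 0.23 with JZL184 in WT mice (adjusted p = 0.0293) and did not pass in the other 3 comparisons. Ifngr2, Ifnlr1 and Il10rb did not pass in any of the 4.

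Among 9 tested genes of JAK-STAT and IRF signalling, Irf1, Irf3, Irf5, Irf8 and Irf9 rose in WT JZL184 against WT VEH mice, and those 5 fell in CD JZL184 against WT JZL184 mice, comparisons that share the WT JZL184 mice. Irf9, the DNA-binding part of ISGF3, was at 12.2 and 13.7 CPM in WT VEH, 15.9, 20.2 and 19.0 CPM in WT JZL184, 20.4, 18.3 and 23.8 CPM in CD VEH and 13.4, 14.9 and 15.2 CPM in CD JZL184 mice. Its log2 fold-change was 0.50 (SE 0.12, adjusted p = 0.0133) in the former comparison and -0.34 (SE 0.11, adjusted p = 0.0290) in the latter. Jak1, Jak2, Tyk2 and Socs3 did not pass in either.

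In the conjugation of Isg15, Uba7, the enzyme before Ube2l6 in the cascade, was at 14.3 and 15.3 CPM in WT VEH, 17.7, 21.4 and 20.4 CPM in WT JZL184, 18.2, 19.3 and 19.6 CPM in CD VEH and 14.6, 15.8 and 16.5 CPM in CD JZL184 mice. It rose by 0.42 (SE 0.09, adjusted p = 0.00686) with JZL184 in WT mice and was lower by a log2 fold-change of -0.34 (SE 0.08, adjusted p = 0.00589) in CD JZL184 than in WT JZL184 mice. CD VEH mouse A was the lowest of its group for Uba7. The ligase Herc6 was at 0.27 (adjusted p = 0.0743) and fell by 0.35 (SE 0.10, adjusted p = 0.0142) in the same comparisons, and Trim25, another ligase for Isg15, was at 0.18 (adjusted p = 0.0670) and -0.10 (adjusted p = 0.226).

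Of 34 tested antiviral effectors, 26 rose and 0 fell in WT JZL184 against WT VEH mice by edgeR (all genes 15.4% and 14.0%). The largest log2 fold-changes were 1.14 for Ifitm1 (SE 0.25, adjusted p = 0.00855), of a family that blocks the entry of virus into cells, 0.94 for Ifi27l2a and 0.92 for Slfn2. In CD JZL184 against WT JZL184 mice 20 fell and 0 rose (all genes 20.1% and 18.2%), led by Ifitm1 at -1.07 (SE 0.22, adjusted p = 0.00337) and Ifi27l2a at -0.93. Of 13 interferon-inducible GTPases, 9 rose in the former (all genes 15.4%) and 7 fell in the latter (20.1%), with Tgtp1 at -1.01 (SE 0.21, adjusted p = 0.00402). Tgtp1 and Tgtp2 are near-identical, and their counts could be split.

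Of 9 tested sensors and adaptors, 5 rose and 1 fell in WT JZL184 against WT VEH mice (all genes 15.4% and 14.0%). Mavs, the adaptor on mitochondria that relays sensing of viral RNA, was the gene that fell, by 0.28 (SE 0.08, adjusted p = 0.0237). It was at 68.9 and 68.4 CPM in WT VEH, 61.8, 51.4 and 56.4 CPM in WT JZL184, 50.2, 55.5 and 50.9 CPM in CD VEH and 65.2, 59.1 and 63.5 CPM in CD JZL184 mice. By group mean, Mavs was thus highest in the groups in which the interferon-stimulated genes were lowest, although WT JZL184 mouse A was above CD JZL184 mouse C. In CD JZL184 against WT JZL184 mice 5 of the 9 fell and 1 rose (all genes 20.1% and 18.2%), with a median of -0.26. Those that fell were the RNA sensors Tlr7 (-0.77), Ifih1 (-0.42), Ddx58 (-0.32) and Tlr3 (-0.26) and Tmem173 (-0.63), which encodes the adaptor STING. Ticam1, the adaptor of Tlr3, rose by 0.18 (SE 0.06, adjusted p = 0.0345).

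Markers of other cells moved with these groups. All 6 endothelial and all 6 macrophage markers rose in WT JZL184 against WT VEH mice (all genes 15.4%) and fell in CD JZL184 against WT JZL184 mice (20.1%). Both comparisons hold the same WT JZL184 mice, so opposite values in them are partly built in. The summed endothelial level was 533 and 539 CPM in WT VEH, 818 to 844 CPM in WT JZL184, 678 to 751 CPM in CD VEH and 523 to 610 CPM in CD JZL184 mice, and the summed macrophage level was 130.1 and 134 CPM, 163 to 266 CPM, 173 to 215 CPM and 117 to 136 CPM in the same order. Their part in the levels of the interferon-stimulated genes was not tested, and in whole heart more cells of a type and more RNA per cell cannot be told apart. Of 6 fibroblast markers, 3 (Pdgfra, Dcn and Lum) rose in the former comparison, by up to 0.74, and these 3 fell in the latter, by up to 0.80 on the log2 scale. Ccr2 of the monocyte list rose by 0.85 and then fell by 0.91, and Ighm, the B cell marker that was tested, rose by 0.97 and fell by 1.03. Of 6 cardiomyocyte markers, 2 were above 0 in the former comparison and 4 in the latter, with list medians of -0.17 and 0.09. Past the threshold, 2 were lower in the former (all genes 14.0%). In the latter 2 were higher and 1 was lower (18.2% and 20.1%). Ryr2 was at -0.74 and then 0.93 and Myh6 at -0.49 and then 0.50, and Myl2 fell by 0.26 in the latter comparison. None of the 5 erythroid markers passed in either comparison. Their median log2 fold-change was 0.84 in the former, where 3 of the 5 were higher without overlap between the groups (all genes 27.4%). It was -1.17 in the latter, where all 5 were lower without overlap (24.3%). In the comparisons that hold CD VEH mouse A, 0 of the 5 passed in CD VEH against WT VEH mice (median 1.77). All 5 passed lower in CD JZL184 against CD VEH mice (median -2.17, all genes 17.0%). The summed level of the 5 was 2034 and 2494 CPM in WT VEH, 2643 to 5512 CPM in WT JZL184 and 1419 to 2195 CPM in CD JZL184 mice. In CD VEH mice A, C and E it was 18832, 2885 and 2032 CPM. The part of these markers too was not tested. T cell markers summed to at most 2.70 CPM and NK cell markers to at most 0.858 CPM in any mouse. Of 6 markers listed for plasmacytoid dendritic cells, which release much interferon, only Cox6a2 was high enough to be tested. Heart muscle also expresses Cox6a2, which was at 774 to 1059 CPM. It rose by 0.28 in WT JZL184 against WT VEH mice and fell by 0.22 in CD JZL184 against WT JZL184 mice, passing in both. Siglech, another of the 6, was at most at 1.07 CPM, with its highest group mean in WT VEH mice (0.921 CPM).

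**Figure D5:**
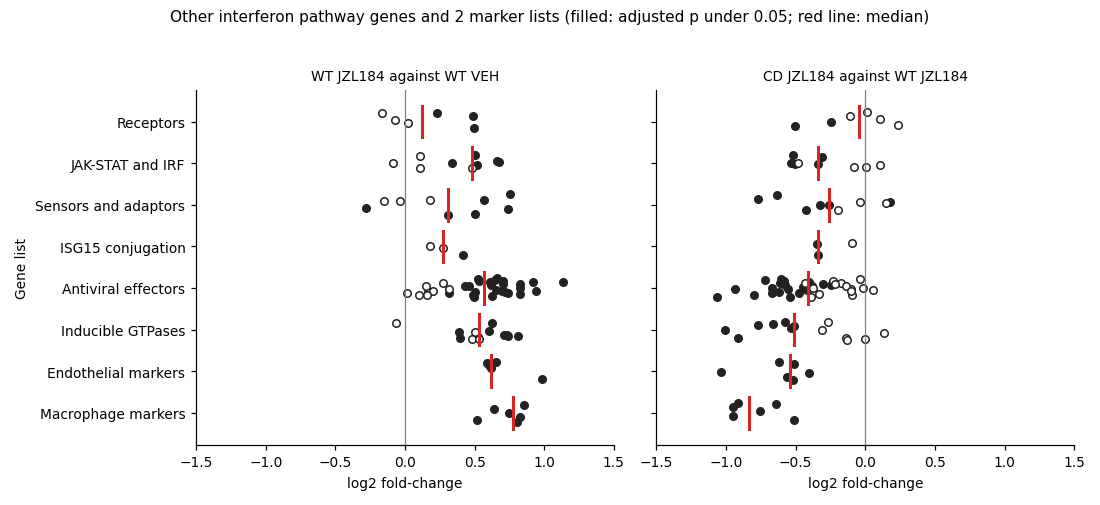
edgeR log2 fold-change (horizontal axis) of 74 interferon pathway genes by role, and of 6 endothelial and 6 macrophage markers, in the comparisons without CD VEH mice. Filled points passed an adjusted p of 0.05, and the red line is the median of each list, which lies above 0 for every list in WT JZL184 against WT VEH mice and below 0 in CD JZL184 against WT JZL184 mice.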

How the data were processed

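The authors sequenced heart RNA of 11 mice on a HiSeq3000 instrument, quantified transcripts with Salmon 0.7.2 on the mouse Ensembl release 85 annotation and brought them to gene level by means of tximport 1.2.0. The deposited table holds estimated counts per gene and mouse, which were rounded here. Mice were taken as independent replicates, so p-values measure the spread between these mice. Symbols, positions and exon lengths came from GENCODE mouse release 21 (22238 of 22608 identifiers matched).

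The quasi-likelihood test of edgeR 4.0.16 (R 4.3.3) was applied with TMM factors, Benjamini-Hochberg adjustment over 11319 genes and a threshold of 0.05, with all 4 groups in a single model, and the SE was derived from the F statistic. Alternatives were DESeq2 1.42.0, other scaling (RLE, upper quartile), other filters, no mitochondrial genes, robust estimation, the compared groups alone, and each mouse left out. The steps were tested on simulated counts.

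The 9 genes and all lists were chosen with earlier results of these data known. Genes named were the 9, the conjugation, receptor and signalling genes, the called pathway genes of largest change and those most like Ube2l6. A few genes of the lists are not reported here and were left out of the counts and sums of their lists.

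Total counts were 69660232 to 92251443, and limits drawn from 3 counts cover counting error only. Between mice of a group the chi-square per gene was 17.2 to 92.7, so none was a repeat of another.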

Additional observations from a re-analysis of the deposited data

Results flagged for a closer look

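The difference between the effect of JZL184 in CD and in WT mice (log2 fold-change in CD minus that in WT) was below 0 for all 9 interferon-stimulated genes. Over all tested genes its median was -0.01. All 9 passed the threshold below 0, beside 26.2% of all tested genes (51.5% in either direction). The difference was -1.92 for Ube2l6, -1.75 for Isg15, -1.38 for Ifit1, -1.27 for Ifit3, -1.26 for Irf7, -0.63 for Stat2, -1.21 for Bst2, -1.14 for Usp18 and -1.19 for Rsad2. These values hold the CD VEH mice that guided the choice of genes, so they are given as a description, without p-values. Without CD VEH mouse A the value of Ube2l6 was -1.05.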

How the results depend on the processing

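No paired analysis was possible because the columns carry no replicate numbers, and what their letters stand for is not given in the sources used here. No log2 fold-change of the 9 genes in the 4 comparisons changed sign under the alternatives run. When single mice were left out, the number of the 9 genes past the threshold ranged from 0 to 9 in CD VEH against WT VEH mice (9 with all mice), from 2 to 8 in CD JZL184 against CD VEH mice (5), from 0 to 9 in WT JZL184 against WT VEH mice (8) and from 2 to 6 in CD JZL184 against WT JZL184 mice (4). The number of the 74 pathway genes ranged from 5 to 44 (43), 25 to 43 (40), 9 to 58 (50) and 32 to 47 (42) in the same comparisons. The counts of the 9 genes in both comparisons with CD VEH mice are a description. Leaving out a WT VEH mouse leaves 1, which is assumed to vary like the other groups. With the log2 erythroid sum as a covariate, added after seeing the data, 5, 1, 5 and 2 of the 9 genes passed in those comparisons, 22 of the 74 passed in CD JZL184 against CD VEH mice, and the log2 fold-change of Ube2l6 was 0.42, -0.34, 0.09 and -0.01, and the cause was not tested. DESeq2, scaling, filters, robust estimation and the compared groups alone kept each of these counts within 1.5 times. Of all tested genes, 14.6% passed in WT JZL184 against WT VEH mice with the compared groups alone (29.4% with all 4). With the covariate 15.4%, 10.1%, 19.3% and 24.2% passed in the 4 comparisons, and 32.9% for the difference between JZL184 effects (51.5% without it). Leaving out single mice gave 3.40% to 31.2%, 18.0% to 34.5%, 4.93% to 39.6% and 26.1% to 43.0% in the same order. With 2 or 3 mice per group these calls rest on few animals.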
